A study of Homo sapiens with 6 samples.

Results

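Teneurins, latrophilins and FLRT proteins are cell surface partners that hold neurons together and guide their axons. The genes examined were the teneurins TENM2, TENM3 and TENM4, the latrophilins ADGRL1, ADGRL2 and ADGRL3, and the FLRT genes FLRT2 and FLRT3. These 8 genes, of 20037 protein-coding genes in the RefSeq table of GRCh38, were listed by name. TENM3 was chosen by its region counts, since it held many fewer matrix-attached regions in the HNRNPU knockdown list than in the hairpin control, and the question was whether its family and binding partners did too. A region was assigned to a gene when it overlapped the gene body by at least 1 bp. The 8 genes held 83 of the 39368 regions of the hairpin control, 70 of the 36277 regions of the knockdown and 74 of the 40106 regions of untreated cells.

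The regions came from MAR-seq, which sequences the DNA that remains with the nuclear matrix after detergent extraction, formaldehyde fixation and restriction digestion of nuclei. All cells were of H1, an established human embryonic stem cell line, and were labelled pluripotent stem cells. There were 2 samples each of cells left untreated (hPSC), of the control hairpin targeting LUC (shLUC) and of the knockdown, in which the hairpin targets HNRNPU (shHNRNPU). HNRNPU codes for a nuclear RNA-binding protein, also known as scaffold attachment factor A. Each group was deposited as 1 list of positions, every region was 400 bp wide, and no region carried a height or a p-value. No value below therefore has a replicate error, and no difference between lists was tested. The lists cannot show whether HNRNPU was reduced or whether pluripotency markers were expressed, and read depth is unknown. How many hairpins were used, and whether the cells were pools or clones, is not given in the sources used here.

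Teneurins are large single-pass membrane proteins that pair with each other and with latrophilins across the gap between cells. Latrophilins are adhesion G protein-coupled receptors, named after the spider toxin that binds ADGRL1, and they bind both teneurins and FLRTs. FLRTs are membrane proteins with leucine-rich repeats that also bind the netrin receptors of the UNC5 family. Several of the genes are among the longest in the genome, with introns that span much of the locus.

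The shHNRNPU list had fewer regions than shLUC in 4 of the 8 genes (TENM2, TENM3, TENM4 and ADGRL3), more in 1 (ADGRL2) and equal in 1 (FLRT2), and both lists had 0 regions in ADGRL1 and FLRT3. The sum over the 8 genes went from 83 to 70, a log2 ratio of -0.25, to which TENM3 (-7 regions) and ADGRL3 (-5) contributed most. Of all protein-coding genes with a region in either list, 30.3% had fewer and 22.5% more. That base leaves out genes like ADGRL1 and FLRT3. The members to set beside it are the 6 with a region, of which 4, TENM3 among them, had fewer. Of those over 300 kb, 49.0% had fewer and 28.1% more, and all 5 members whose number differed were of that length. The choice of TENM3 used this contrast, so nothing is read from its own count. Without TENM3 the sum went from 59 to 53 (log2 ratio -0.15), and without TENM3 and ADGRL3 it went from 44 to 43 (log2 ratio -0.03). The shHNRNPU list was also shorter as a whole. With it scaled to the length of the shLUC list, the ratio over the 8 genes was -0.13. On that scale 2 genes had fewer and 4 more. These counts stood beside 30.2% and 69.8% of all protein-coding genes and 47.6% and 52.4% of those over 300 kb. Scaling raises every shHNRNPU count, so a gene with equal numbers, such as FLRT2, counts as more by construction. The scaled shares with more are therefore not shares of genes that gained regions.

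**Figure D1:**
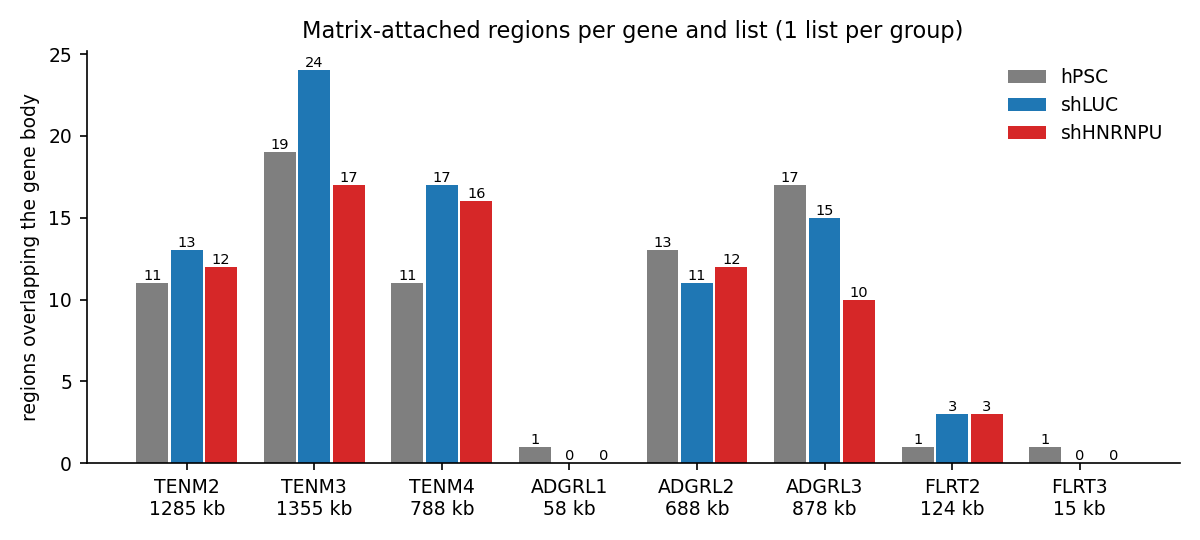
Number of matrix-attached regions overlapping each gene body (y axis) in the hPSC, shLUC and shHNRNPU lists, with 1 bar per list and gene lengths in kb under the names. TENM3 went from 24 to 17 and ADGRL3 from 15 to 10 between shLUC and shHNRNPU, and the other 6 genes differed by at most 1 region between these lists.

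The lists differed in which gene starts had a region within the 250 bases before them. RefSeq starts were at hand for 7 of the 8 genes (all but ADGRL1), with 19 windows of 250 bases before a start. Of these windows, several of which belong to the same gene, 6 were touched by a region of at least 1 list. No share of touched windows over all RefSeq windows stands beside this count. Nothing particular to these genes is therefore read from it, or from the lists that touched a window. A set of 4 windows is printed, 1 for each combination of lists found touching a window. The window before the start of ADGRL3 (chr4:61200076-61200325, + strand) was touched in all 3 lists. That before a start within TENM3 (chr4:182448766-182449015, + strand) was touched in both hairpin lists, whose region ended before the start itself. The window before the first start of ADGRL2 (chr1:81305882-81306131, + strand) was touched in shHNRNPU only. That before the start of FLRT3 (chr20:14337613-14337862, - strand) was touched in hPSC only. Sequences are from RefSeq on GRCh38.p14 and run 5′ to 3′ with the gene, ending at the base before the start. Capitals mark the bases inside a region of any list.
ADGRL3: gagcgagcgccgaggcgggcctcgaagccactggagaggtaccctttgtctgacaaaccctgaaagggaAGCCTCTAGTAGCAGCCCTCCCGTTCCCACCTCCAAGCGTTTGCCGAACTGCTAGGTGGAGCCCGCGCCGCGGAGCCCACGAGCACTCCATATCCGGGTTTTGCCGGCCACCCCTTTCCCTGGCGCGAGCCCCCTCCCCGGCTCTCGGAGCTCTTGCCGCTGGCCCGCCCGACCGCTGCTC
TENM3: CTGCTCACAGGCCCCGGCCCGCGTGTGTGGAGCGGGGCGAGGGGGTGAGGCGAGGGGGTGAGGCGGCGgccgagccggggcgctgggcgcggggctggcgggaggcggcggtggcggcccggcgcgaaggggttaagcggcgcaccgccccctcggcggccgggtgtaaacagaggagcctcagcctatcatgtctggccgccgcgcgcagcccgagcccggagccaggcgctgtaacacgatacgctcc
ADGRL2: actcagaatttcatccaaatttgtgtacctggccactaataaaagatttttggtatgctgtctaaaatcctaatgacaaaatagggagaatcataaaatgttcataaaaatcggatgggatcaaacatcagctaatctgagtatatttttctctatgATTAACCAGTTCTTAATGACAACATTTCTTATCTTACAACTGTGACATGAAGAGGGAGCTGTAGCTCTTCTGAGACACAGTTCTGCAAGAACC
FLRT3: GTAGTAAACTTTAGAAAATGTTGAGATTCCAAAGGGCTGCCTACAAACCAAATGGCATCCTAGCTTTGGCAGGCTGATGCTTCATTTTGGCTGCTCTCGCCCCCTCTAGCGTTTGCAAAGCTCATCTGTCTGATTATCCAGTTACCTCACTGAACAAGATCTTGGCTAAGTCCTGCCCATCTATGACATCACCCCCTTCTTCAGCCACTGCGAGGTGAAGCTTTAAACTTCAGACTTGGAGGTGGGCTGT

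In the ADGRL3 window the hPSC region covered the last 181 bases and the hairpin regions the last 87. In the TENM3 window both hairpin regions covered the first 68 bases, and the shHNRNPU region covered the last 93 bases of the ADGRL2 window. The hPSC region spanned all 250 bases before FLRT3. The windows differed widely in base composition. A and T made up 32.0% of the ADGRL3 window, 22.8% of the TENM3 window, 65.2% of the ADGRL2 window and 52.4% of the FLRT3 window, against a median of 42.0% over 35116 RefSeq windows of the same length. Nuclei had been cut with MspI (CCGG), HaeIII (GGCC), RsaI (GTAC), AluI (AGCT), BamHI (GGATCC) and PvuII (CAGCTG). These sites read the same on both strands. Every PvuII site holds an AluI site, and a CCGG can share bases with a GGCC. The ADGRL3 window held 3 MspI, 3 HaeIII, 1 RsaI and 1 AluI site, and the TENM3 window held 5 MspI and 6 HaeIII sites. The ADGRL2 window had no MspI site but 1 HaeIII, 1 RsaI and 3 AluI sites. The FLRT3 window held 3 AluI sites and none of the others. Over all windows, 58.5% held an MspI site, 74.5% a HaeIII site, 25.5% an RsaI site, 66.1% an AluI site, 5.57% a BamHI site and 14.0% a PvuII site.

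TENM3, on chromosome 4 (GRCh38, 181447613 to 182803024), is the longest of the genes at 1355 kb. It held 19 regions in hPSC, 24 in shLUC and 17 in shHNRNPU, so the knockdown list was lowest and the untreated list lay between the hairpin lists. Of the 24 shLUC regions, 17 were kept, which means that a shHNRNPU region overlapped them (70.8%, exact Clopper-Pearson 95% interval 48.9 to 87.4%), 7 were lost and 0 were gained. These intervals cover counting error only, and the regions of a gene are not replicates. Over all protein-coding genes 71.3% of shLUC regions were kept. Of 197 protein-coding genes with at least 10 shLUC regions, 12.7% gained none. TENM3 was chosen on this contrast, so its kept, lost and gained regions are a description.

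The 7 lost TENM3 regions lay along the whole gene, 339.9, 397, 647, 850.2, 896, 1272 and 1352 kb from its 5′ end. The lost regions at 181787301 to 181787700 and 181843998 to 181844397 were neighbours, and the longest stretch between regions, 307 kb in the knockdown, ran across both, from the kept region at 181654428 to that at 181961378. The longest such stretch measured 156 kb in the control. In hPSC it measured 387 kb and also ran across both positions, from the region at 181562810 to that at 181949880. The regions kept were densest toward the 3′ end. When the gene was cut into 3 equal parts from the 5′ end, shHNRNPU kept 3 of 5 shLUC regions in the first part, 4 of 7 in the second and 10 of 12 in the last. An hPSC region overlapped 1 of the 7 lost TENM3 regions, at 182297584 to 182297983, and 1 of the 17 kept ones, at 182144250 to 182144649 beside an annotated start and within the antisense gene TENM3-AS1. The lists do not tell strands apart, so the latter region belongs to both genes.

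**Figure D2:**
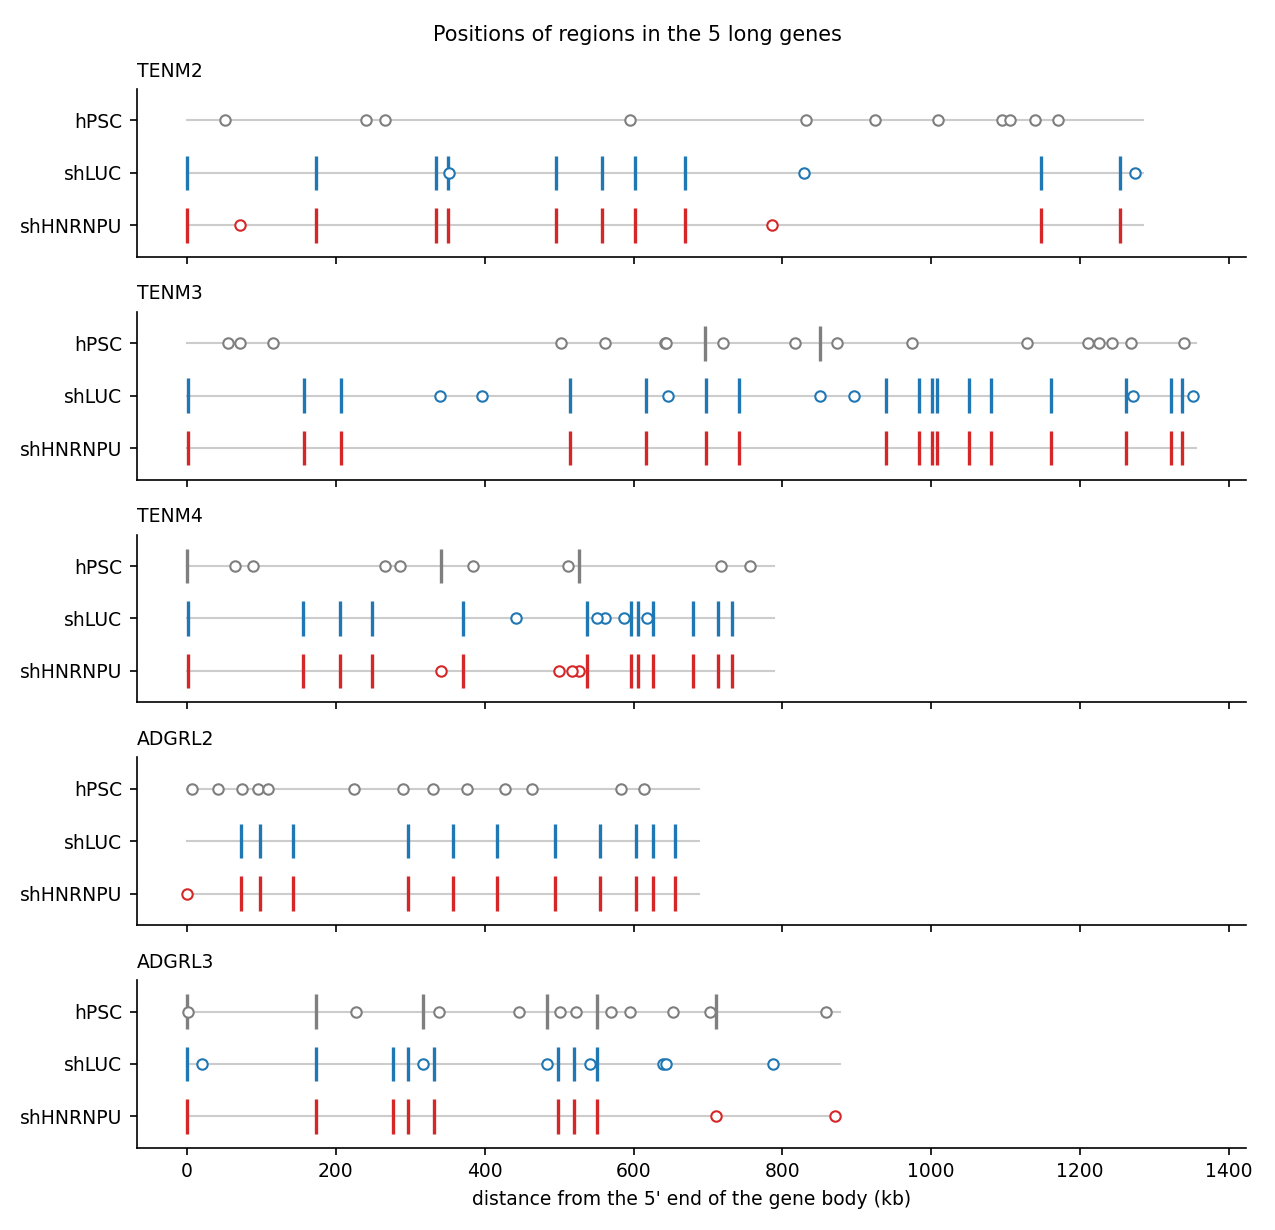
Region positions in the 5 genes over 300 kb, as distance in kb from the 5′ end of the gene body, with 1 row per list. Ticks are shLUC or shHNRNPU regions present in the other hairpin list (kept) and hPSC regions present in either hairpin list. Open circles are regions lost (shLUC row), gained (shHNRNPU row) or found in hPSC only. TENM3 shows 7 lost and 0 gained regions, ADGRL2 shows 0 lost and 1 gained, and TENM4 shows lost and gained regions beside each other between 500.3 and 618 kb.

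TENM2, on chromosome 5 (166979029 to 168264157), is nearly as long at 1285 kb and was the sparsest of the long genes. It held 11 regions in hPSC, 13 in shLUC and 12 in shHNRNPU. Knockdown lost 3 of the 13 and gained 2, so that 10 were kept (76.9%, exact interval 46.2 to 94.96%). The net difference of 1 region was thus what remained of losses and gains. No hPSC region in the TENM2 body overlapped a hairpin region, and the only overlap was at the 5′ end, where the hairpin region at 166978823 to 166979222 met an hPSC region that ended just before the gene body (166978609 to 166979008).

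TENM4, on chromosome 11 (78652829 to 79441030, - strand, 788 kb), had the highest density of the 5 long genes in both hairpin lists. It held 11 regions in hPSC, 17 in shLUC and 16 in shHNRNPU. Of its shLUC regions 12 were kept (70.6%, exact interval 44.0 to 89.7%, beside 71.3% over all protein-coding genes) and 5 lost, and 4 were gained. Lost regions at 551, 561, 587 and 618 kb from the 5′ end faced gained ones at 500.3, 517 and 527 kb. Of the 4 gained, 2 had the coordinates of an hPSC region to the base (78913554 to 78913953 and 79100073 to 79100472). An hPSC region overlapped 0 of the 5 lost regions. Over all protein-coding genes an hPSC region overlapped 30.9% of gained and 17.3% of lost regions. In the other genes over 300 kb these shares were 28.2% and 14.6%, so nothing particular to TENM4 is read from its counts.

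Among the latrophilins, ADGRL3 and ADGRL2 stood at opposite ends. ADGRL3, on chromosome 4 (61200326 to 62078335, 878 kb), held 17 regions in hPSC, 15 in shLUC and 10 in shHNRNPU. It kept 8 of 15 (53.3%, exact interval 26.6 to 78.7%), the smallest share of the 6 genes with shLUC regions, and it lost 7 and gained 2. A kept share under 60% was seen in 17.8% of the 197 protein-coding genes with at least 10 shLUC regions, a limit set after the ADGRL3 value was known. In the last of 3 equal parts of ADGRL3 all 3 shLUC regions were lost and 2 others, at 711 and 870.2 kb, were gained. An hPSC region overlapped 5 of its 15 shLUC regions, the largest number among the 8 genes, of which 3 were kept and 2 lost. The share of shLUC regions so overlapped was 16.8% over all protein-coding genes and 11.9% in the other genes over 300 kb. As the largest of 8 small counts, that of ADGRL3 is a description only. The kept region at its start lies within LOC124900173 too and belongs to both genes, as does the lost region at 61219798 to 61220197.

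ADGRL2, on chromosome 1 (81306132 to 81993932, 688 kb), held 13 regions in hPSC, 11 in shLUC and 12 in shHNRNPU. All 11 shLUC regions were kept (100%, exact interval 71.5 to 100%) and 1 was gained, the region at the first start printed above (81306039 to 81306438). Of the 197 protein-coding genes with at least 10 shLUC regions, 2.03% kept every one, which was looked up after the ADGRL2 value was known. The 13 hPSC regions of ADGRL2 overlapped 0 hairpin regions, although the nearest lay 661 bp from a hairpin region. Having no shLUC region in the hPSC list was seen in 25.9% of the same genes. ADGRL1, on chromosome 19 (14147743 to 14206169, 58.4 kb), held 1 hPSC region (14150342 to 14150741, inside the antisense gene ADGRL1-AS1) and 0 hairpin regions. At the mean density of protein-coding genes a gene of its length would hold 1.05 shLUC regions, so 0 regions say little.

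**Figure D3:**
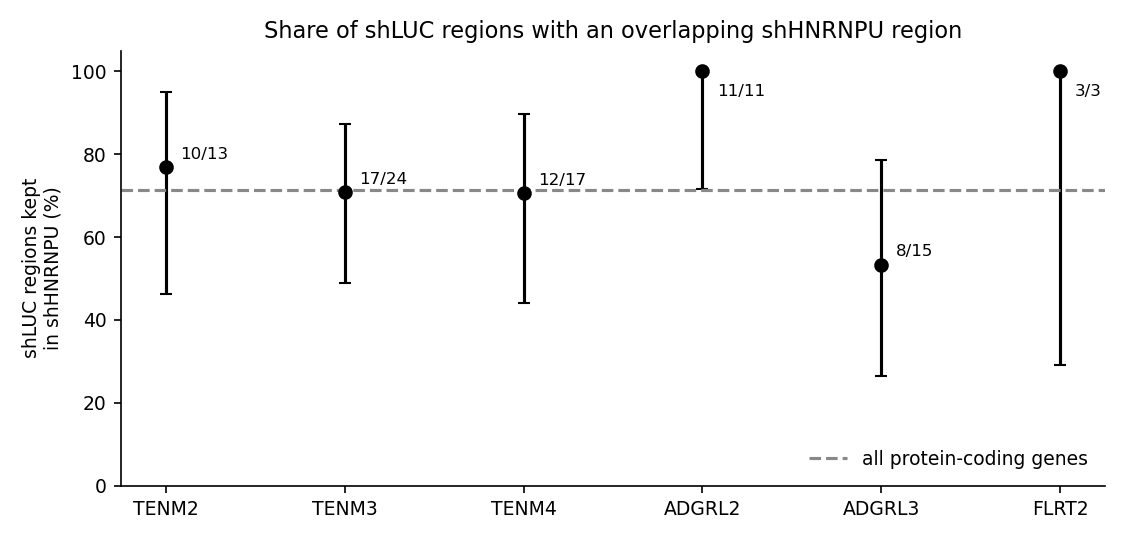
Share of shLUC regions that overlapped a shHNRNPU region (y axis, percent) for the 6 genes with shLUC regions. Points give kept over all shLUC regions, bars are exact Clopper-Pearson 95% intervals for counting error only, and the dashed line is the share over all protein-coding genes (71.3%). The intervals of all 6 genes overlap each other, from 53.3% in ADGRL3 to 100% in ADGRL2 and FLRT2, and that of ADGRL2 begins at 71.5%.

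FLRT2, on chromosome 14 (85530144 to 85654428, 124 kb), held 1 region in hPSC and 3 in each hairpin list, all 3 kept. The region at 85577613 to 85578012 was in all 3 lists at the same coordinates. FLRT3, on chromosome 20 (14322985 to 14337612, 14.6 kb), held only the hPSC region at its start, and the nearest shLUC region lay 4996 bp away. FLRT3 lies inside the body of MACROD2, so that region belongs to both genes, and 0.262 shLUC regions would be held by a gene of its length at the mean density of protein-coding genes.

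Over the 8 genes, shHNRNPU kept 61 of 83 shLUC regions (73.5%, exact interval 62.7 to 82.6%), close to the 71.3% of all protein-coding genes and the 71.7% of the other genes over 300 kb. The regions gained were 9 of 70 shHNRNPU regions (12.9%, exact interval 6.05 to 23.01%), against 23.4% over all protein-coding genes and 22.3% in the other genes over 300 kb. TENM3, with 0 gained, was chosen on this contrast. Without it the gained share was 17.0%, with an exact interval of 8.07 to 29.8% that held both of the other shares. All 61 kept regions had identical coordinates in the hairpin lists. Of the 22 lost regions, 0 had a shHNRNPU region within 1 kb. The nearest lay 1276 bp away, in TENM2, and the median distance was 21.3 kb. The 9 gained regions were at least 9.72 kb from any shLUC region. No share over all protein-coding genes stands beside these coordinates and distances, so nothing particular to the 8 genes is read from them.

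**Figure D4:**
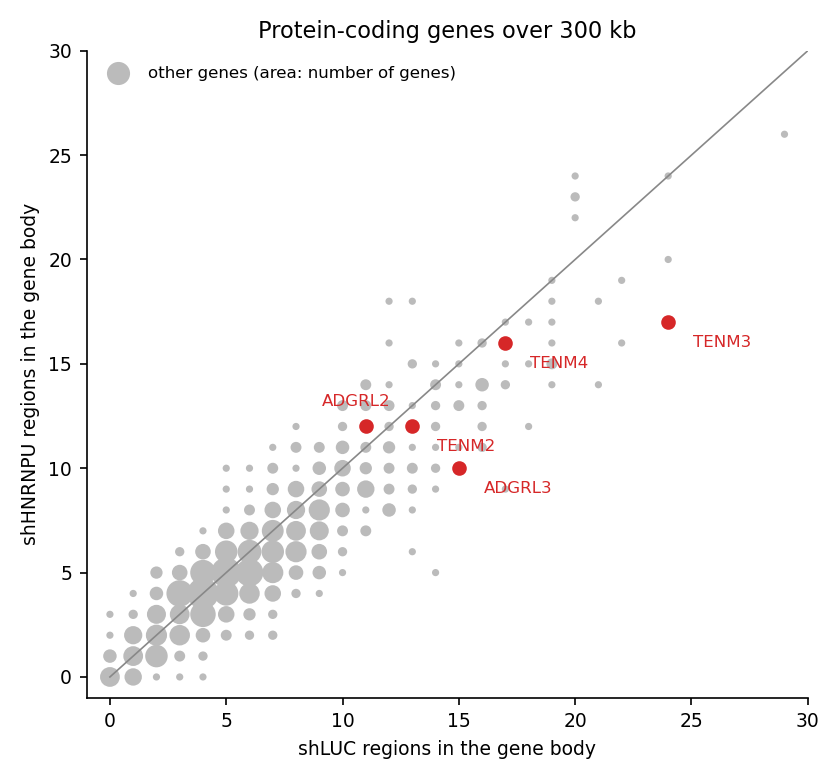
Number of shHNRNPU regions (y axis) against shLUC regions (x axis) in protein-coding genes over 300 kb, with equal numbers on the grey line. Red points are the 5 members of that length and grey circles all other genes, with an area that grows with the number of genes at that position. TENM3 (24 and 17) and ADGRL3 (15 and 10) lie below the line, TENM2 (13 and 12) and TENM4 (17 and 16) just below it, and ADGRL2 (11 and 12) above it.

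Untreated cells and the hairpin control, which both left HNRNPU untargeted, also differed in these genes. Regions were fewer in hPSC than in shLUC in 4 of the 8 genes (TENM2, TENM3, TENM4 and FLRT2) and more in the other 4, beside 36.1% and 41.1% of all protein-coding genes and 47.4% and 40.6% of those over 300 kb. The sum was 74 against 83 (log2 ratio -0.17). TENM3 was chosen on a contrast that used the same shLUC list, and without it the sum was 55 against 59 (log2 ratio -0.10). For TENM4 the difference between the control lists was 6 regions and between the hairpin lists 1. Both comparisons share the shLUC list. An hPSC region overlapped 10 of the 83 shLUC regions (12.05%, exact interval 5.93 to 21.0%), beside 11.9% in the other genes over 300 kb. By class it was 7 of 61 kept regions (11.5%, exact interval 4.74 to 22.2%), 3 of 22 lost ones (13.6%, exact interval 2.91 to 34.9%) and 3 of 9 gained ones (33.3%, exact interval 7.49 to 70.1%). These intervals overlap. The corresponding shares over all protein-coding genes were 16.5%, 17.3% and 30.9%, and in the other genes over 300 kb 10.8%, 14.6% and 28.2%. Of the 74 hPSC regions, 62 (83.8%, exact interval 73.4 to 91.3%) overlapped a region of neither hairpin list, beside 76.8% over all protein-coding genes and 81.8% in the other genes over 300 kb. Transduction, batch and calling of the untreated list cannot be told apart.

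The regions found in all 3 lists were set against gene starts and ends. Of the 7 such shLUC regions, 4 (57.1%, exact interval 18.4 to 90.1%) lay within 1 kb of an annotated start or an end of the gene body. They were those at the 5′ ends of TENM2, TENM4 and ADGRL3 and at an internal start of TENM3. Of the other 76 shLUC regions, 4 did (5.26%, exact interval 1.45 to 12.9%). Over all protein-coding genes these shares were 71.3% and 17.6%, so the difference was not particular to the 8 genes. All 8 shLUC regions near a start or end were kept in shHNRNPU (exact interval 63.1 to 100%), against 53 of the 75 elsewhere (70.7%, exact interval 59.0 to 80.6%). The shares over all protein-coding genes were 78.2% and 69.1%. These kept counts include TENM3, which was chosen on this contrast, so they are a description. There were 13 pairs of an hPSC region with an overlapping hairpin region. In the 4 pairs at starts or ends the hPSC region was shifted by 94 to 334 bp, while 8 of the 9 pairs elsewhere had identical coordinates. Over all protein-coding genes the hPSC region was shifted in 74.4% of 3224 pairs at starts or ends and identical in 54.9% of 2105 pairs elsewhere, and in the other genes over 300 kb these shares were 79.6% and 59.4%. Nothing particular to the 8 genes is read from their 13 pairs.

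Density was compared per Mb of gene body. The 8 genes held 14.3 regions per Mb in hPSC, 16.0 in shLUC and 13.5 in shHNRNPU, against 17.9, 17.9 and 16.7 over all protein-coding genes and 11.6, 12.1 and 11.2 over the other genes longer than 300 kb. In shLUC the order was FLRT2 (24.1), TENM4 (21.6), TENM3 (17.7), ADGRL3 (17.1), ADGRL2 (16.0) and TENM2 (10.1), with ADGRL1 and FLRT3 at 0. Counting error alone leaves this order open: exact Poisson 95% intervals were 12.6 to 34.5 regions per Mb for TENM4 and 5.39 to 17.3 for TENM2, and those of all neighbours in the order overlapped. In shHNRNPU, TENM3 (12.5 regions per Mb) and ADGRL3 (11.4) came after ADGRL2 (17.4) and before TENM2 (9.34), with intervals that again overlapped. TENM3 was chosen on the contrast of the hairpin lists, so its change of place is a description. Without TENM3 the other 7 genes held 14.3 regions per Mb in hPSC, 15.4 in shLUC and 13.8 in shHNRNPU.

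The neighbourhood of each gene was counted over flanks that together equal the gene in length. TENM3 flanks held 22 regions in shLUC and 20 in shHNRNPU beside 24 and 17 in the gene, and ADGRL3 flanks 8 and 6 beside 15 and 10. TENM4 showed the reverse, with 12 and 9 in the flanks and 17 and 16 in the gene. The flanks of ADGRL2 were poor in regions, with 5 in both lists, and those of TENM2 held more than the gene, with 22 and 20. Summed over the 5 long genes, the flanks went from 69 to 60 regions (-13.0%) and the gene bodies from 80 to 67 (-16.3%). Without TENM3, which was chosen on this contrast, the order of body and flank turned: the flanks of the other 4 went from 47 to 40 (-14.9%) and their bodies from 56 to 50 (-10.7%). The other genes over 300 kb differed by -7.67%.

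**Figure D5:**
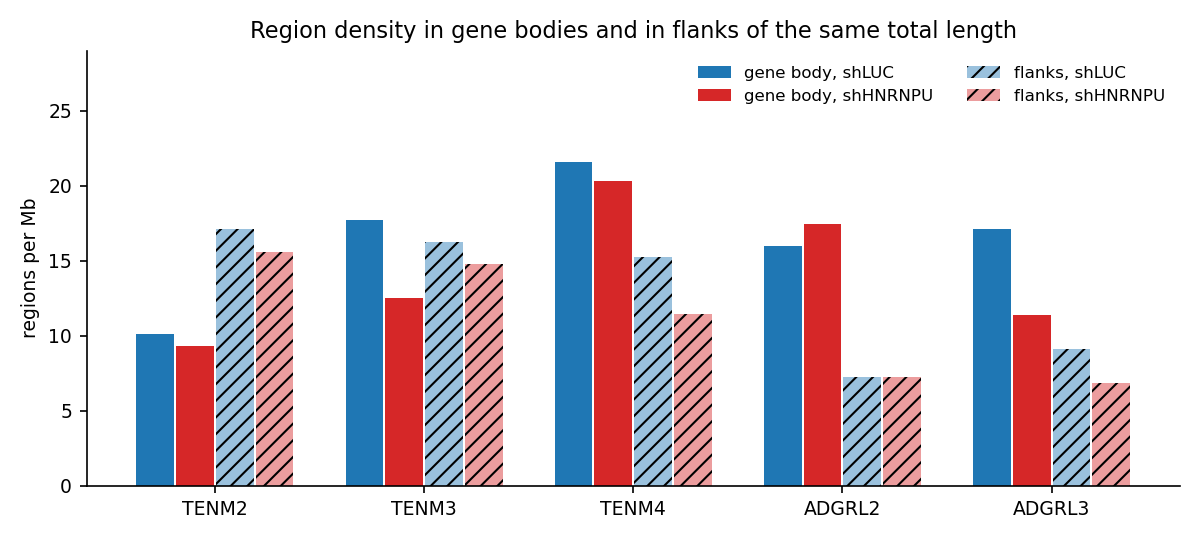
Regions per Mb (y axis) in the bodies of the 5 genes over 300 kb (solid bars) and in flanks of the same total length, split over both sides (hatched bars), in shLUC (blue) and shHNRNPU (red). TENM3 went from 17.7 to 12.5 in the body and from 16.2 to 14.8 in the flanks, and ADGRL2 from 16.0 to 17.4 in the body with 7.27 in the flanks of both lists.

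Relatives and partners outside the 8 genes held between 0 and 8 shLUC regions each. Their list was made up of the teneurin TENM1, the latrophilin relative ADGRL4, FLRT1 and the netrin receptors UNC5A, UNC5B, UNC5C and UNC5D, which bind FLRTs. Of these 7 genes, 1 had fewer regions in shHNRNPU than in shLUC, 5 had more and ADGRL4 had 0 in both. Among all protein-coding genes with a region in either list, a base that leaves out genes like ADGRL4, 30.3% had fewer and 22.5% more. Among those over 300 kb, a length that TENM1, UNC5C and UNC5D exceed, 49.0% had fewer and 28.1% more. FLRT1 went from 8 to 6 in a body of 83.2 kb. Its 96.1 regions per Mb in shLUC were more than in any of the 8 genes. At the mean density of protein-coding genes it would hold 1.49 shLUC regions. UNC5D went from 5 to 8 with 11 in hPSC, and all 4 of its gained regions overlapped an hPSC region. Of gained regions, 30.9% did so over all protein-coding genes and 28.2% in the other genes over 300 kb. Nothing particular to UNC5D is read from its 4 regions. UNC5A and UNC5B each went from 1 to 3, UNC5C from 1 to 2 and TENM1, on chromosome X, from 0 to 1. A gene of the length of TENM1 would hold 14.9 shLUC regions at that mean density. The sum over the list was 16 in shLUC, 23 in shHNRNPU and 25 in hPSC.

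By density over the 3 lists, the genes most like TENM3 were ULK4 on chromosome 3, RYR2 on chromosome 1 and CALN1 on chromosome 7, taken from 192 other protein-coding genes with at least 10 shLUC regions by Euclidean distance of log2(regions per Mb + 1). The distances were 0.247, 0.254 and 0.294. ULK4 held 9, 14 and 10 regions in hPSC, shLUC and shHNRNPU, RYR2 held 10, 12 and 10, and CALN1 held 9, 11 and 10. With 3 values per gene this likeness is a description of these lists.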

How the data were processed

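MAR-seq of H1 cells was deposited as 1 region list per group, and each group had 2 samples. The labels' processing notes name hg38 and the tools cutadapt, Bowtie2, SAMtools, MACS2 and deepTools, and their roles, versions and options are not given in the sources used here. Whether the samples of a group were pooled is likewise not given. The deposited score column held 0 for every region and was not used. The region starts and ends in the deposited lists were the only values used, and they were converted to positions counted from 1.

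Gene bodies and start sites were those of RefSeq on GRCh38.p14. A region was assigned to each gene it overlapped by at least 1 bp, and the same minimum defined a region shared between lists. Shares have exact Clopper-Pearson 95% intervals and densities exact Poisson 95% intervals, and both cover counting error only. No test between groups was run, since each has 1 list. Background shares were counted over all protein-coding genes with a region in either list. The RefSeq windows of opposite strands that shared bases matched as reverse complements in 3027 of 3027 pairs. The named genes were the 8 members, 7 relatives and partners, genes overlapping a member and the 3 genes nearest to TENM3 in density. The members, lists and alternatives were chosen with earlier results of these data known. The counting code was tested on simulated lists: 25345 of 25345 planted kept regions and the counts of 200 of 200 genes were recovered. Counts and intervals were computed in Python 3.11.15 with pandas 2.3.3, scipy 1.17.1 and numpy 2.4.6, and plots drawn with matplotlib 3.10.9.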

Additional observations from a re-analysis of the deposited data

How the results depend on the processing

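Of 115 recomputed values, 113 stayed within counting error of the value reported, or within 1.5 regions for a single gene, without turning from fewer to more or back. Among them, differences of single genes moved to or from 0: FLRT3 in hPSC minus shLUC from 1 to 0 by region centre and with 10 kb on either side, FLRT3 in shHNRNPU minus shLUC from 0 to -1 with 10 kb on either side, and FLRT2 from 0 to 0.256 with scaling. The other 2 were single genes that turned when the shHNRNPU list was scaled to the length of the shLUC list. TENM2 then differed from shLUC by 0.0225 regions in place of -1, and TENM4 by 0.363 in place of -1. The 113 include values that could not change. Leaving out TENM3 does not touch the counts of other genes, nor the gained regions in hPSC, as TENM3 gained 0. Scaling a list leaves the density of the 8 genes relative to all protein-coding genes unchanged. Also among the 113, TENM3 in shHNRNPU minus shLUC moved from -7 to -5.55 with scaling. The log2 ratio of the sums moved from -0.25 to -0.03 without TENM3 and ADGRL3. So 113 of 115 does not measure robustness. Assigning regions by their centre, merging regions under 1 kb apart and adding 10 kb on either side of each gene gave log2 ratios of shHNRNPU to shLUC over the 8 genes between -0.28 and -0.25. The sums over the 5 long genes and without TENM3 and ADGRL3 were added after seeing the data. An overlap of 50% of both regions lowered the share of shLUC regions in the hPSC list from 12.05 to 8.43% and left the kept share at 73.5%.

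No paired analysis was possible because only 1 list stands for both samples of a group, and for the same reason no replicate was left out. A stricter threshold was not run, since no region carries a score. Depth is unknown, and its part in the region numbers was not tested. With 0 to 24 regions per gene and list, differences of a few regions lie within counting error.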
